A study of Mus musculus with 6 samples.

Results

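The genes described here are 37 genes of glucose metabolism, taken by gene name from the 15454 genes of a liver RNA-seq count table: 3 glucose transporters, 19 glycolytic enzymes and regulators, 7 gluconeogenic enzymes, 4 glycogen enzymes, and the E1 subunit of pyruvate dehydrogenase with 3 of its kinases. The livers came from male C57BL/6 mice aged 8 to 10 weeks, kept pathogen-free under a 12-h light/dark cycle, in which 75% of the liver had undergone warm ischemia followed by reperfusion (I/R). In 3 mice the vehicle alone was given (I/R group), and in 3 mice ginsenoside Rk2, a dehydroprotopanaxadiol saponin of ginseng, dissolved in that vehicle (I/R+Rk2 group). Every mouse had a dose before ischemia, with a lead of 2 days, and another on reperfusion. Per the study's methods the doses were intraperitoneal, the sequenced Rk2 livers had the higher dose tested, and ischemia came from a clamp on the left and middle portal branches. Every liver used here had been through I/R, and sham-operated livers were not analysed here, so each value is a difference between treated and untreated injured livers. The study asked whether Rk2 limits hepatic I/R injury by way of AKT, a kinase of the insulin pathway.

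As background, glycolysis splits glucose to pyruvate and gluconeogenesis runs the opposite way by other enzymes at its irreversible steps, while glycogen stores glucose between meals. Hepatocytes use their own isoforms, encoded by separate genes, at many of these steps: the transporter GLUT2 (Slc2a2), the phosphofructokinase Pfkl, the bifunctional enzyme Pfkfb1, the pyruvate kinase Pklr, the glycogen synthase Gys2 and the phosphorylase Pygl. Leukocytes, proliferating cells and most other tissues use GLUT1 and GLUT3 (Slc2a1, Slc2a3), the hexokinases Hk1, Hk2 and Hk3, Pfkp, Pfkfb3, Aldoa and Pkm, several of which are known targets of the hypoxia-inducible factors. Insulin, signalling through AKT to the transcription factor FOXO1, lowers G6pc and Pck1 transcription in healthy liver.

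The 6 libraries held 16809613 to 35618074 counts each, and I/R and I/R+Rk2 libraries separated on the first principal component (71.8% of the variance in log2 CPM). Differences between I/R+Rk2 and I/R were tested on the counts with edgeR's quasi-likelihood test, with Benjamini-Hochberg adjustment across 12411 genes that passed the low-count filter. Adjusted p values below come from that test unless limma, DESeq2 or a permutation is named, and they measure the spread between the 3 livers labelled as separate samples of each group. CPM is the count of a gene per 1000000 counts of its library after edgeR's TMM scaling. FPKM, which also divides by transcript length, was used wherever the levels of different genes were set against each other. Hepatocyte markers dominated every library, with summed levels of 71716 to 82507 CPM with vehicle and 107252 to 129368 CPM with Rk2 over the 9 markers measured of 10 listed. Of these 9, Alb and 4 others rose and Hnf4a fell, and the median log2 fold change was 0.34. The part of hepatocyte content in the higher levels of liver genes given below was not tested.

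All 37 genes passed the filter. With Rk2, 12 were higher and 10 were lower at an adjusted p below 0.05, and 15 did not pass. The 22 genes called are 59.5% of the 37, beside 43.9% of all genes tested, of which 20.3% were higher and 23.7% lower. With a fold change above 2 as a second condition, 4 of the 37 were higher, beside 3.17% of all genes, and 7 were lower, beside 11.4%. The 3 livers of one group did not overlap the 3 of the other for 25 of the 37 genes, beside 57.4% of all genes, with 13 higher in I/R+Rk2 (beside 27.2%) and 12 lower (beside 30.3%). The median log2 fold change was 0.21 over the 37 genes and -0.01 over all genes. The median absolute change was 0.74 beside 0.44. Scaled by library size alone, which shifts the median of all genes to -0.17, the split was 8 higher and 12 lower.

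**Figure D1:**
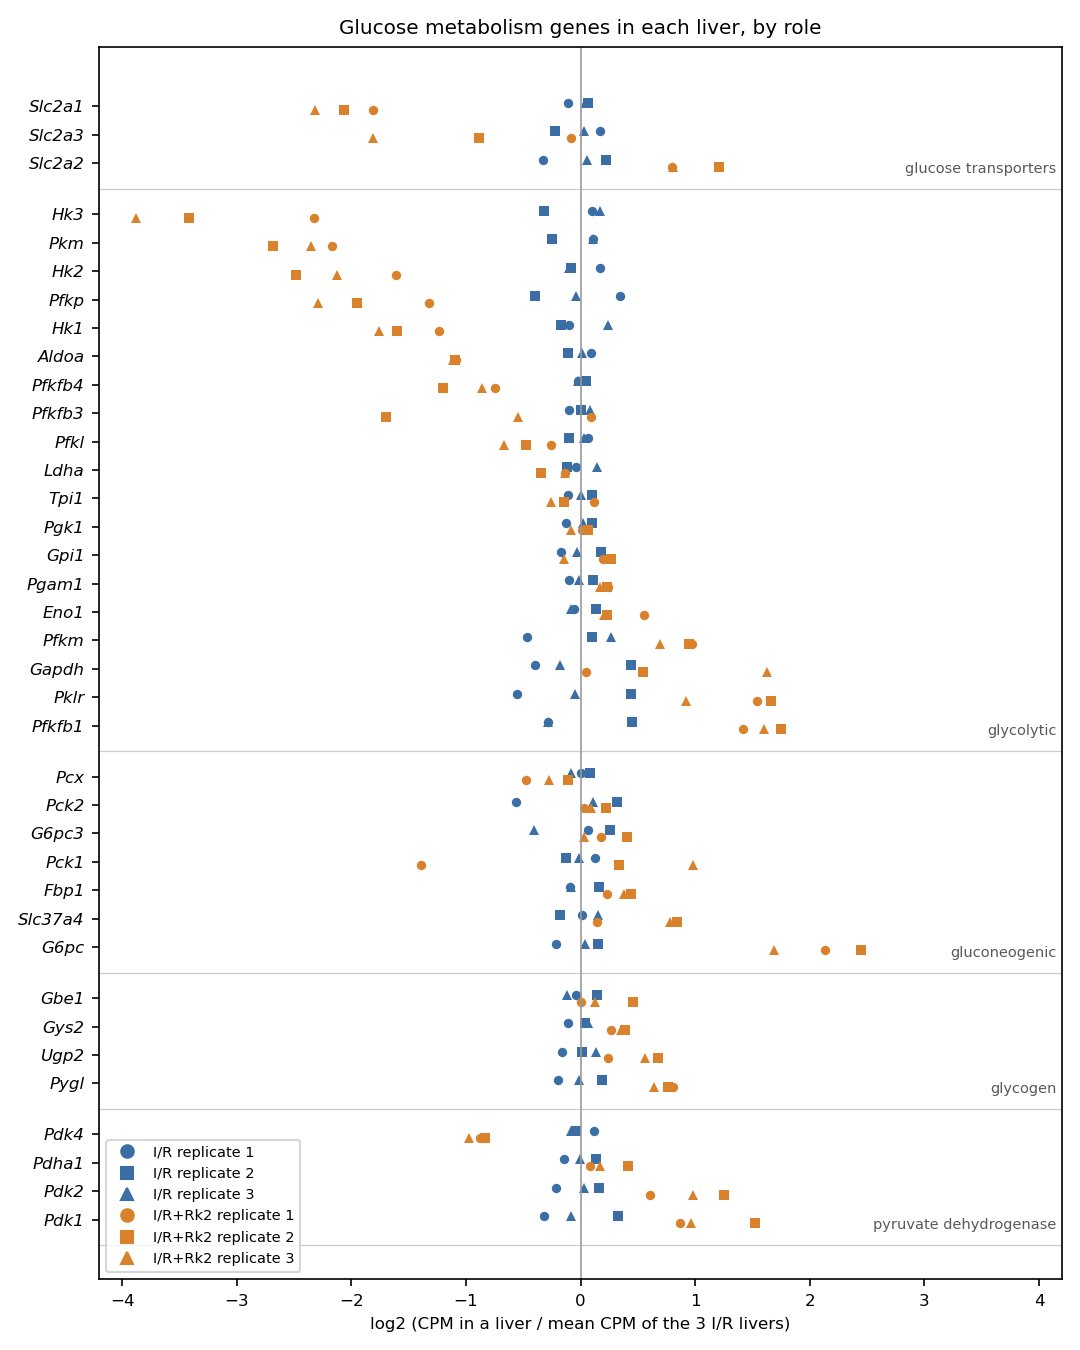
Level of each of the 37 genes in each liver, as log2 of its CPM over the mean CPM of the 3 I/R livers (horizontal axis), grouped by role (rows); blue marks are I/R livers, orange marks I/R+Rk2 livers, and marker shape is the replicate. The orange marks of Hk3, Pkm, Hk2, Slc2a1, Pfkp, Hk1 and Aldoa sit more than 1 log2 unit to the left of the line, those of G6pc more than 1 unit to its right, and those of Pck1 lie on both sides.

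The isoforms divided by class. Of the 7 liver isoforms (Slc2a2, Pfkl, Pfkfb1, Pklr, G6pc, Gys2 and Pygl), 6 rose with Rk2 and 1, Pfkl, fell, with a median log2 fold change of 0.95. Of the 12 isoforms classed as other, 8 fell, 1, Pfkm, rose and 3 (Slc2a3, Pfkfb3 and G6pc3) did not pass, with a median of -1.30. The classes were not matched step by step. Hk1, Hk2, Hk3 and Aldoa had no liver partner among the 7, and Gys2 and Pygl had no partner among the 12. Called were 100% of the 7 and 75% of the 12, beside 43.9% of all genes tested. Beyond a fold change of 2 there were 3 liver isoforms, all higher (Pfkfb1, Pklr and G6pc), and 7 other isoforms, all lower (Slc2a1, Hk1, Hk2, Hk3, Pfkp, Pkm and Aldoa). These classes were set with earlier results of these data known, so the counts describe the genes and are no independent evidence of a direction.

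**Figure D2:**
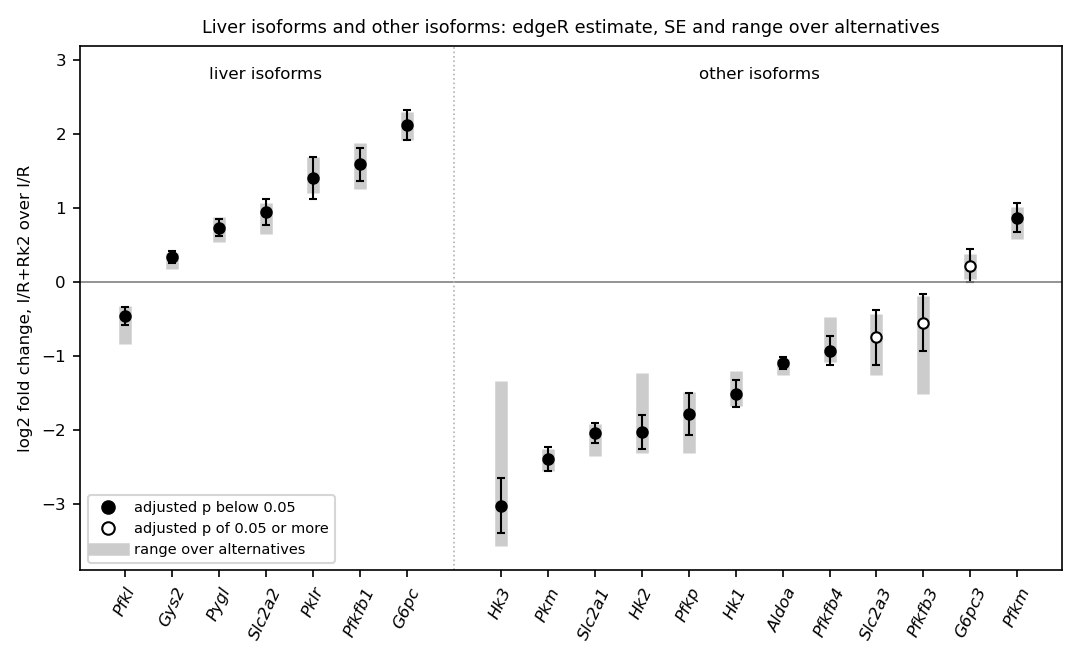
Log2 fold change of I/R+Rk2 over I/R (vertical axis) for the 7 liver isoforms and the 12 other isoforms (horizontal axis); points are edgeR estimates with 1 SE (3 livers per group), filled where the adjusted p was below 0.05, and grey bars span the estimates under up to 17 alternative settings. Estimates run from -0.46 for Pfkl to 2.12 for G6pc among liver isoforms and from -3.02 for Hk3 to 0.87 for Pfkm among the others, and no grey bar of a filled point crosses 0.

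Glucose enters hepatocytes mainly through GLUT2, which carries it in either direction and is encoded by Slc2a2 (GRCm38 chr3:28697903-28731359, plus strand). Its level was 69.0, 101 and 89.8 CPM with vehicle and 150.4, 199.6 and 152 CPM with Rk2. Every Rk2-treated liver was above every vehicle liver, and the gene rose 1.93-fold (log2 fold change 0.95, SE 0.17, adjusted p = 0.00489). Slc2a1 encodes GLUT1, the high-affinity transporter of most other cells, and lies at chr4:119108711-119137983. It stood at 69.6, 78.8 and 77.1 CPM with vehicle and at 21.5, 18.0 and 15.1 CPM with Rk2. The groups were far apart and tight within themselves, and Slc2a1 fell 4.12-fold (log2 fold change -2.04, SE 0.14, adjusted p = 0.00024).

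Slc2a3, which encodes the GLUT3 of neurons and leukocytes, gave 15.1, 11.4 and 13.6 CPM with vehicle and 12.6, 7.22 and 3.81 CPM with Rk2. I/R+Rk2 replicate 1 lay among the vehicle livers, and the gene did not pass (log2 fold change -0.75, SE 0.37, adjusted p = 0.144). Without that liver the difference was -1.25 and passed (adjusted p = 0.0138).

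All 3 low-Km hexokinases, which phosphorylate glucose on entry in cells other than hepatocytes, fell. Hk1, the form of brain and red cells, went from 15.3, 14.6 and 19.4 CPM with vehicle to 6.97, 5.42 and 4.85 CPM with Rk2 (2.85-fold lower, adjusted p = 0.00115). Hk2, the insulin- and hypoxia-responsive form of muscle and many dividing cells, went from 14.1, 11.8 and 11.7 CPM to 4.12, 2.25 and 2.89 CPM (4.08-fold lower, adjusted p = 0.000983). Hk3, a form found mainly in myeloid cells, went from 6.77, 5.07 and 7.09 CPM to 1.26, 0.592 and 0.43 CPM. Its estimate of -3.02 on the log2 scale (SE 0.37, adjusted p = 0.00123) was the most negative of the 37 genes. None of the 3 genes had an overlap between the groups.

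Phosphofructokinase commits the sugar to glycolysis and works as a tetramer of liver (Pfkl), muscle (Pfkm) and platelet (Pfkp) subunits. Here the liver subunit did not follow the other liver isoforms. Pfkl read 41.7, 37.1 and 40.8 CPM with vehicle and 33.3, 28.6 and 25.1 CPM with Rk2, a 1.37-fold decrease (log2 fold change -0.46, SE 0.12, adjusted p = 0.0201). That call was lost without any 1 of 4 livers (I/R replicates 1 and 3, I/R+Rk2 replicates 2 and 3; adjusted p 0.0514 to 0.0668) and with the transcript-length trend removed (-0.32, adjusted p = 0.0657). Pfkm rose from 5.78, 8.58 and 9.60 CPM to 15.7, 15.4 and 12.9 CPM (log2 fold change 0.87, SE 0.20, adjusted p = 0.0112). Pfkp fell from 16.4, 9.83 and 12.6 CPM to 5.17, 3.34 and 2.64 CPM (log2 fold change -1.79, SE 0.29, adjusted p = 0.00316).

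The PFKFB enzymes make and break fructose 2,6-bisphosphate, the signal that speeds phosphofructokinase and slows fructose bisphosphatase. Pfkfb1, the liver form, was 5.94, 9.87 and 5.94 CPM with vehicle and 19.3, 24.3 and 22.0 CPM with Rk2. The 2 sets of livers were well apart, and the gene rose 3.01-fold (log2 fold change 1.59, SE 0.22, adjusted p = 0.0019). Pfkfb4, an inducible form named for testis, fell from 3.96, 4.13 and 3.94 CPM to 2.39, 1.75 and 2.21 CPM (log2 fold change -0.93, SE 0.19, adjusted p = 0.00851).

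Pfkfb3, the inducible, strongly kinase-biased form, read 43.4, 46.7 and 49.3 CPM with vehicle and 49.6, 14.3 and 31.9 CPM with Rk2. By counts the groups overlapped through I/R+Rk2 replicate 1, and the gene did not pass (log2 fold change -0.55, SE 0.38, adjusted p = 0.281). In the FPKM table the same livers gave 26.5, 16.2 and 27.8 FPKM and 13.3, 4.89 and 7.73 FPKM, which do not overlap, and limma on log2(FPKM + 1) called it lower (-1.40 on that scale, adjusted p = 0.010). The ratio of CPM to FPKM, which a fixed transcript length would hold near constant, varied 2.52-fold over the 6 livers for Pfkfb3. By counts it also passed when I/R+Rk2 replicate 1 was left out (log2 fold change -1.04, adjusted p = 0.0405).

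Of the 37 genes, those for the enzymes between phosphofructokinase and pyruvate kinase include 1 that edgeR called, Aldoa. Aldoa, the aldolase of muscle and most tissues, was 181, 157 and 171 CPM with vehicle and 80.1, 79.7 and 78.5 CPM with Rk2. The treated livers were nearly identical to one another and all below the vehicle livers (2.14-fold lower, log2 fold change -1.10, SE 0.08, adjusted p = 0.000306).

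The other enzymes of the common path are expressed in nearly all cells, and their differences did not pass. Gapdh is described after the rest. Log2 fold changes were 0.12 for the phosphoglucose isomerase gene Gpi1, -0.08 for the triose phosphate isomerase gene Tpi1, less than 0.01 in size for the phosphoglycerate kinase gene Pgk1, 0.21 for the mutase gene Pgam1 and 0.34 for the enolase gene Eno1, with adjusted p values from 0.0583 to 0.998. Livers of the groups did not overlap for Pgam1 (82.1, 95.4 and 87.2 CPM against 104, 104 and 99.0 CPM) and Eno1 (174, 198 and 170.1 CPM against 264, 211 and 208 CPM), and both were higher with Rk2 and passed with upper-quartile scaling, and Eno1 also with DESeq2 and with the transcript-length trend removed. Eno1b, a near-identical copy of Eno1 whose reads cannot be separated with certainty, had a log2 fold change of 0.39 (adjusted p = 0.0461). That call held under 5 alternative settings and was lost under 12.

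Gapdh, often taken as a constant reference gene, was the least even of these. It read 67.3, 120.3 and 78.2 CPM with vehicle and 91.6, 129 and 273 CPM with Rk2 (log2 fold change 0.89, SE 0.41, adjusted p = 0.116). I/R+Rk2 replicate 3 was far above every other liver by counts, and without it the log2 fold change was 0.32, while without I/R+Rk2 replicate 1 it was 1.17 and passed (adjusted p = 0.0418). In FPKM the values were 112, 136 and 110.1 with vehicle and 106, 115 and 163 with Rk2, so the spread was smaller there, and the ratio of CPM to FPKM varied 2.78-fold over the livers. Gapdh has many near-identical pseudogene copies in the mouse genome, and how reads were divided among them was not tested.

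**Figure D3:**
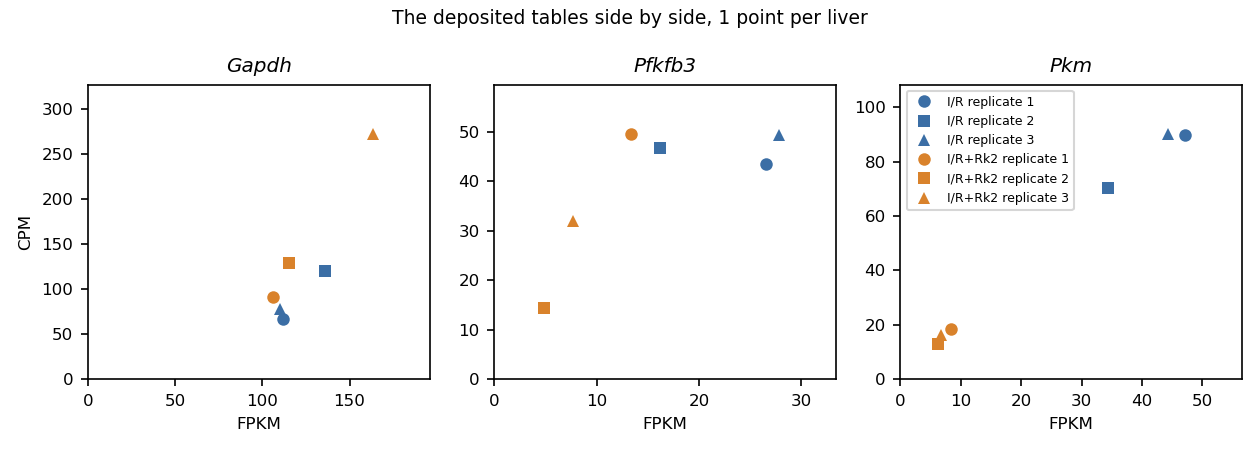
CPM from the count table (vertical axis) against FPKM from the FPKM table (horizontal axis) for Gapdh, Pfkfb3 and Pkm; each point is 1 liver, blue I/R and orange I/R+Rk2. The points of Pkm fall near a line through the origin, whereas Gapdh in I/R+Rk2 replicate 3 reaches 273 CPM at 163 FPKM and Pfkfb3 in I/R+Rk2 replicate 1 reaches 49.6 CPM at 13.3 FPKM.

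For pyruvate kinase the liver isoform rose and the other fell. Pklr encodes the L and R forms of liver and red cells (chr3:89136142-89146784, plus strand), and was 87.0, 173 and 123 CPM with vehicle and 371, 405 and 242 CPM with Rk2. All treated livers lay above all vehicle livers, and it rose 2.65-fold (log2 fold change 1.41, SE 0.28, adjusted p = 0.00725). Pkm encodes the M forms of most other cells (chr9:59656368-59679375, plus strand), and was 89.9, 70.5 and 90.4 CPM with vehicle and 18.6, 13.02 and 16.3 CPM with Rk2. It fell 5.24-fold (log2 fold change -2.39, SE 0.17, adjusted p = 0.00024).

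Red cell markers were also higher with Rk2. All 5 listed (4 globin genes and Alas2) rose, and their summed level was 1300.5 to 2519 CPM with vehicle and 3241 to 4193 CPM with Rk2. Within the groups their order was not that of Pklr. I/R+Rk2 replicate 2 had the highest Pklr level and the lowest marker sum of the treated livers, and I/R+Rk2 replicate 3 had the reverse. Among vehicle livers replicate 1 was lowest for both, while replicate 2 was highest for Pklr and replicate 3 for the markers. The part of red cells in the Pklr values was not tested. Exons of Pklr also share 711 bases (22.0% of its exonic length) with Hcn3 on the opposite strand, and whether the counting used strand is not given in the sources used here. Hcn3 itself averaged 3.55 CPM with vehicle and 14.7 CPM with Rk2, far below Pklr. Exon overlaps with other genes covered 15.3% of Pkm, 16.1% of Pdha1, 11.5% of Gpi1, 10.2% of Pfkm and at most 5.58% of any other of the 37 genes.

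Ldha, the lactate dehydrogenase subunit that favours lactate formation, ended the pathway with 444, 422 and 506 CPM with vehicle and 417, 359.7 and 415 CPM with Rk2. Every treated liver was slightly below every vehicle liver, but the difference did not pass (log2 fold change -0.20, SE 0.11, adjusted p = 0.166). It did pass in the FPKM table (limma on log2(FPKM + 1), -0.38, adjusted p = 0.0247).

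Markers of infiltrating leukocytes fell beside these other isoforms. All 10 neutrophil markers were tested and 9 fell, and their summed level was 525 to 645 CPM with vehicle and 96.7 to 225 CPM with Rk2. Of 9 monocyte markers all fell, with a median log2 fold change of -4.33, although their sum moved less (1602 to 1925 against 1128 to 1184 CPM), and Fn1, which hepatocytes also express, made up 1407 to 1744 against 1115 to 1174 CPM of it. Of 9 Kupffer cell markers, 2 fell (99.9 to 150 against 70.8 to 86.9 CPM). The 6 T and NK cell markers were near 0 throughout (0.390 to 0.797 against 0.737 to 1.18 CPM), and each was at 0 in at least 1 library. Among the treated livers I/R+Rk2 replicate 1 had the most neutrophil marker counts, and it also had the highest Slc2a1, Slc2a3, Hk1, Hk2, Hk3, Pfkp and Pkm levels of its group. Aldoa was nearly the same in the 3 treated livers (80.1, 79.7 and 78.5 CPM). Among the vehicle livers I/R replicate 2 had the lowest neutrophil marker sum (525 CPM). Its Slc2a3, Hk1, Hk3, Pfkp and Pkm levels were the lowest of that group, its Hk2 level was not, and its Slc2a1 level was the highest (78.8 CPM). In bulk tissue fewer cells of a type and less RNA per cell cannot be told apart, and the part of leukocytes in the lower levels of Slc2a1, the hexokinases, Pfkp, Pfkfb4, Aldoa and Pkm was not tested.

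The balance of isoforms was then taken inside each liver. It is the share of the liver isoform in the summed FPKM of the isoforms compared at its step. This share does not depend on library scaling. For pyruvate kinase, Pklr made up 42.2%, 64.1% and 48.8% of the Pklr and Pkm level with vehicle and 93.6%, 95.3% and 92.0% with Rk2. The mean share went from 51.7% ± 11.2 (SD, n = 3) to 93.6% ± 1.67 (SD, n = 3). For the transporters, the share of Slc2a2 went from 37.8% ± 1.58 to 80.6% ± 8.18 (SD, n = 3 each). For the bifunctional enzymes, the share of Pfkfb1 among Pfkfb1, Pfkfb3 and Pfkfb4 went from 14.7% ± 7.25 to 55.3% ± 14.5. Pfkfb2, a further form of this enzyme, was not in that sum. It averaged 8.03 FPKM in I/R and 1.64 FPKM in I/R+Rk2, so with it the share would be lower in both groups. Phosphofructokinase stood apart, since the share of Pfkl was 63.2% ± 4.21 in I/R and 59.0% ± 2.85 in I/R+Rk2, with overlapping livers.

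**Figure D4:**
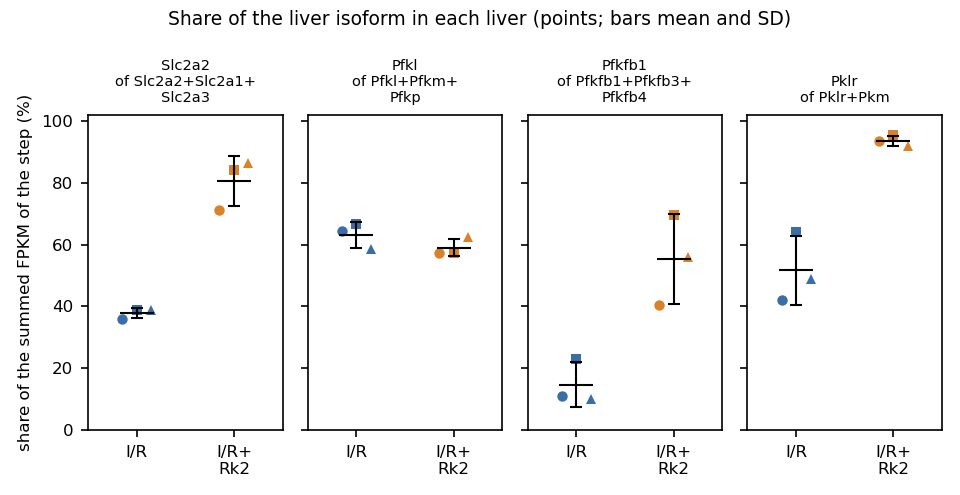
Share of the liver isoform in the summed FPKM of the isoforms compared at 4 steps (vertical axis, %), by liver. Pfkfb2 is not in the sum for Pfkfb1. Points are livers (blue I/R, orange I/R+Rk2, shapes replicates 1 to 3), the long bar is the mean and the error bar the SD (n = 3). The groups do not overlap for Slc2a2, Pfkfb1 and Pklr, and they overlap for Pfkl.

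As log2 ratios of FPKM + 0.1 within a liver, 5 of the 8 ratios examined did not overlap between the groups. With 3 against 3 livers the exact two-sided permutation test cannot go below 0.1, which those 5 reached (adjusted over the 8 ratios, p = 0.16 for each). The ratio of Pklr to Pkm was higher with Rk2 by 3.79 on the log2 scale, that of Pfkfb1 to Pfkfb3 and Pfkfb4 by 2.93, and that of Slc2a2 to Slc2a1 and Slc2a3 by 2.83. The ratio of the liver glucose-6-phosphatase G6pc to the ubiquitous G6pc3 differed by 1.79. The ratio of Pfkl to Pfkm and Pfkp differed by -0.26 (exact permutation p = 0.2), and by -0.92, without overlap, when counts per transcript length replaced FPKM.

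Ratios of enzymes that oppose each other were examined in the same way. Fbp1 over Pfkl differed by 1.03, without overlap, so the phosphatase gene exceeded its opposing kinase gene by more in the treated livers. Gys2 over Pygl differed by -0.26 (exact permutation p = 0.2, adjusted p = 0.229) and Pck1 over Pklr by -1.42 (exact permutation p = 0.3, adjusted p = 0.3), and livers of the groups overlapped in both.

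Of the 7 gluconeogenic genes, 3 rose (G6pc, Fbp1 and Slc37a4) and none fell by edgeR at an adjusted p below 0.05. The 3 called are 42.9% of the 7, close to the 43.9% of all genes tested. Of the others 1, Pcx, was lower at an unadjusted p below 0.05, and 0 were lower by DESeq2. G6pc encodes the catalytic subunit of glucose-6-phosphatase, which frees glucose for release into blood (chr11:101367561-101377903, plus strand). It was 149, 193 and 178 CPM with vehicle and 759, 947 and 557 CPM with Rk2. Even the lowest treated liver was far above the highest vehicle liver, and G6pc rose 4.35-fold (log2 fold change 2.12, SE 0.20, adjusted p = 0.000594), the largest increase among the 37 genes. Slc37a4, whose product brings glucose 6-phosphate to that enzyme in the endoplasmic reticulum, was 77.7, 68.1 and 85.7 CPM with vehicle and 85.3, 138 and 133 CPM with Rk2. I/R+Rk2 replicate 1 overlapped the vehicle livers, and the call (log2 fold change 0.62, SE 0.19, adjusted p = 0.0338) was lost without any 1 of the I/R livers and without I/R+Rk2 replicate 2 or 3 (adjusted p 0.0541 to 0.103).

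Fbp1, the fructose bisphosphatase of liver and kidney, was 582, 693 and 587 CPM with vehicle and 729.7, 842 and 807 CPM with Rk2. The groups did not overlap, and the increase was small (log2 fold change 0.35, SE 0.11, adjusted p = 0.0348) and not past the threshold in the FPKM table (0.19, limma adjusted p = 0.177). Without I/R replicate 1 or 3, or I/R+Rk2 replicate 2 or 3, it did not pass either (adjusted p 0.0866 to 0.119). Pcx, the pyruvate carboxylase that begins gluconeogenesis from pyruvate, was 482, 508 and 453 CPM with vehicle and 346, 445 and 397 CPM with Rk2. All treated livers were below all vehicle livers, with an adjusted p of 0.082 (log2 fold change -0.28, SE 0.11) that passed in the FPKM table (-0.44, limma adjusted p = 0.0189).

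Pck1, the cytosolic phosphoenolpyruvate carboxykinase, had the highest mean FPKM of the 37 genes and a wide spread with Rk2. It was 1555, 1302 and 1408 CPM with vehicle and 541, 1790.3 and 2810.3 CPM with Rk2. The vehicle livers agreed closely, whereas the treated livers spanned from well below to well above them, and the gene did not pass (log2 fold change 0.27, SE 0.50, adjusted p = 0.684). Without I/R+Rk2 replicate 1 the difference was 0.69 (adjusted p = 0.0369), and without I/R+Rk2 replicate 3 it was -0.28. G6pc did not share this spread, since I/R+Rk2 replicate 1, lowest for Pck1, was intermediate for G6pc. Pck2, the mitochondrial form, was at 2.50 to 4.60 CPM in all livers (log2 fold change 0.11, adjusted p = 0.729), and G6pc3 at 2.63 to 4.62 CPM (log2 fold change 0.22, adjusted p = 0.448).

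Of the 4 glycogen genes, 3 rose by less than 2-fold and none fell by edgeR. The 3 called are 75% of the 4, beside 43.9% of all genes tested. There were 0 lower at an unadjusted p below 0.05 and 0 by DESeq2. Pygl, the liver phosphorylase that breaks glycogen down, was 298, 390.3 and 339 CPM with vehicle and 598, 581 and 535 CPM with Rk2. It rose 1.67-fold with no overlap (log2 fold change 0.74, SE 0.12, adjusted p = 0.00314). Gys2, the liver synthase that builds glycogen, was 82.9, 91.6 and 93.6 CPM with vehicle and 108, 117 and 114 CPM with Rk2. Its difference was smaller but the livers were tight (log2 fold change 0.34, SE 0.08, adjusted p = 0.0168). The call was lost with library-size scaling (0.18) and without I/R+Rk2 replicate 2 (adjusted p = 0.0609). The median log2 fold change of the hepatocyte markers was also 0.34.

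Ugp2, which makes the UDP-glucose that synthase adds to the chain, was 164, 186 and 201 CPM with vehicle and 217, 294 and 272 CPM with Rk2 (log2 fold change 0.50, SE 0.14, adjusted p = 0.0218). Its call was lost without I/R replicate 1 or 2 and without I/R+Rk2 replicate 2 or 3 (adjusted p 0.0547 to 0.0720). Gbe1, the branching enzyme, did not pass (log2 fold change 0.21, adjusted p = 0.245). Genes for both the making and the breaking of glycogen were among those that rose.

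Pyruvate dehydrogenase turns pyruvate into acetyl-CoA, and its kinases switch it off by phosphorylating the E1 subunit encoded by Pdha1. The 3 kinases did not move together. Pdk1 was 33.1, 51.8 and 39.0 CPM with vehicle and 75.5, 119 and 80.4 CPM with Rk2 and rose 2.21-fold (log2 fold change 1.15, SE 0.22, adjusted p = 0.00646). Pdk2, the most widely expressed kinase, was 35.7, 46.5 and 42.4 CPM with vehicle and 63.3, 98.8 and 81.9 CPM with Rk2 and rose 1.96-fold (log2 fold change 0.97, SE 0.18, adjusted p = 0.00507). Pdk4, the kinase that fasting and fatty acids induce, was 66.9, 60.0 and 58.1 CPM with vehicle and 33.6, 34.7 and 31.5 CPM with Rk2 and fell 1.85-fold (log2 fold change -0.89, SE 0.09, adjusted p = 0.000712). In none of the 3 did the livers of the groups overlap. Pdk1 is a known target of the hypoxia-inducible factors, as are Slc2a1, Hk2 and Aldoa, which fell. Pgk1, Ldha, Pfkfb3, Eno1 and Gapdh are known targets too, and they did not pass. Log2 fold changes were -0.0003 for Pgk1, -0.20 for Ldha, -0.55 for Pfkfb3, 0.34 for Eno1 and 0.89 for Gapdh. Their adjusted p values ran from 0.0583 to 0.998. The targets named here are not a full list, and targets of these factors were not tested as a set. Pdha1 did not pass (log2 fold change 0.23, adjusted p = 0.154).

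Per transcript length the levels spanned more than 2 orders of magnitude. In I/R the highest mean levels were those of Pck1 (535 ± 81.9 FPKM, SD, n = 3), Fbp1 (425 ± 36.8 FPKM) and Ldha (331 ± 35.4 FPKM), and Pck1 and Fbp1 differed by little more than their spread. The lowest were Hk3 (2.04 ± 0.470 FPKM), Pfkfb4 (1.27 ± 0.164 FPKM) and Pck2 (1.06 ± 0.257 FPKM), and the last pair did not differ beyond their spread. With Rk2, G6pc (278 ± 75.0 FPKM) reached a mean above that of Ldha (253 ± 10.8 FPKM), although their spreads overlapped. The glycolytic genes that fell more than 2-fold were, Aldoa and Pkm apart, among the lowest of the 37, with mean levels of 2.04 to 5.76 FPKM in I/R.

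**Figure D5:**
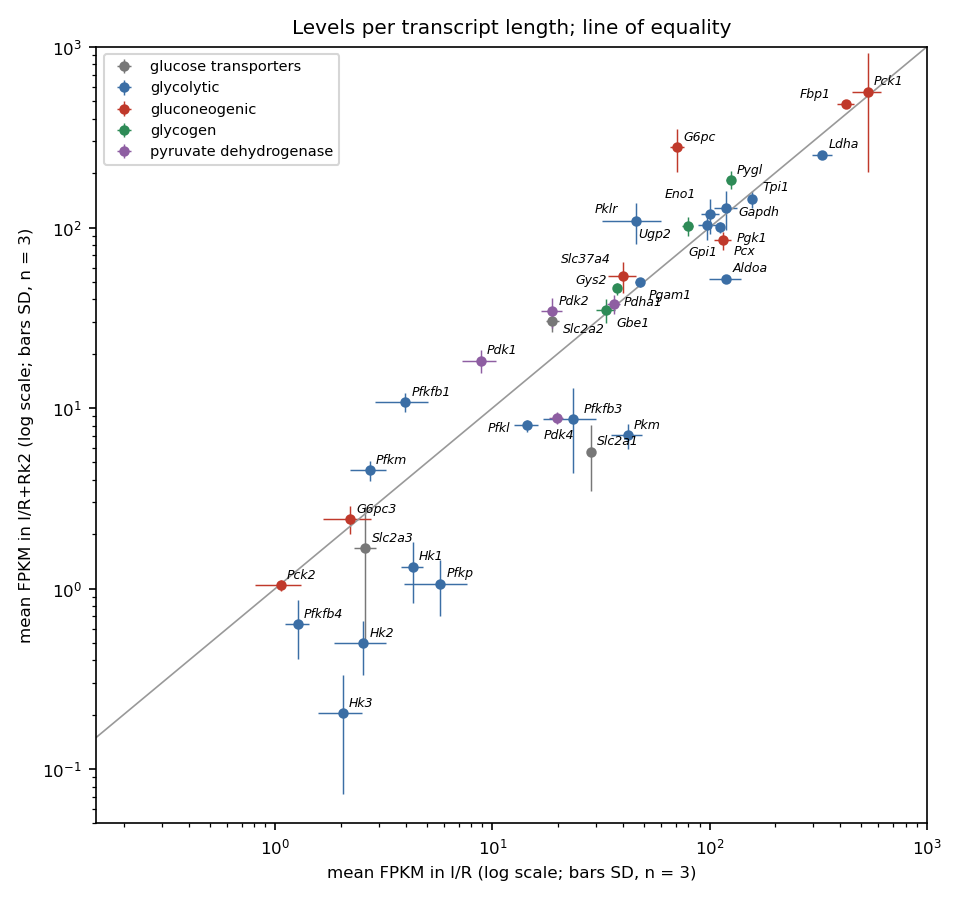
Mean FPKM in I/R+Rk2 (vertical axis) against mean FPKM in I/R (horizontal axis) of the 37 genes, both on log scales, coloured by role, with SD bars (n = 3 per group) and the line of equality. Pklr, G6pc, Pfkfb1 and Pdk1 lie above the line and Slc2a1, Pkm, Aldoa, Hk1, Hk2, Hk3 and Pfkp below it, while most of the abundant glycolytic and gluconeogenic genes lie close to it.

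Promoters of these genes were searched for 4 short motifs in the 250 bases before a RefSeq start (GRCm38.p6), on both strands. For each gene the RefSeq start nearest its annotated gene start was counted. Of the 37 genes 35 matched a promoter in that table, and Slc2a3 and Gys2 did not. The sequences below come from a gene of each pattern above: a hexokinase that fell, the pyruvate kinase and phosphatase genes that rose, and a kinase gene that rose. Each was paired with a motif that it holds, so the matches shown were fixed by that choice. Each is given 5′ to 3′ along the gene's strand, without bases that any annotated exon covers, and capitals mark the matches. Hk2 (chr6:82774455-82774704, minus strand) holds ACGTG, the core of the hypoxia response element, here read as its reverse complement at 226 and 52 bases before the start. Pklr (chr3:89136373-89136571, plus strand) is shown before its second RefSeq start, 481 bases downstream of the annotated gene start. It holds the half-sites CACGGG and CCCGTG of the carbohydrate response element known from the L-type promoter, at 170 and 159 bases before that RefSeq start. G6pc (chr11:101367466-101367560, plus strand) holds TGTTTTG, a core of insulin response sequences to which FOXO1 binds, at 174 bases before the start. Pdk2 (chr11:95041372-95041621, minus strand) holds the E-box CACGTG at 126 bases before the start.
Hk2: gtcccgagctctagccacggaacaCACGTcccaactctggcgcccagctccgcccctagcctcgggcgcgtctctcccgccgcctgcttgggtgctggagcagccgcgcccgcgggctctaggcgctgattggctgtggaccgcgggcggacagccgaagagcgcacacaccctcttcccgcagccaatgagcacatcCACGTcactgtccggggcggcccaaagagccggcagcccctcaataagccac
Pklr: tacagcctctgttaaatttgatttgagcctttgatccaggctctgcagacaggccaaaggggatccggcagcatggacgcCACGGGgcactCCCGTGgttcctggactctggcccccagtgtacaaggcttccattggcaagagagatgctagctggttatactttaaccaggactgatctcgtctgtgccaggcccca
G6pc: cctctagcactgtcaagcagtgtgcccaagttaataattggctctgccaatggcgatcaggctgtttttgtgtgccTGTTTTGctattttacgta
Pdk2: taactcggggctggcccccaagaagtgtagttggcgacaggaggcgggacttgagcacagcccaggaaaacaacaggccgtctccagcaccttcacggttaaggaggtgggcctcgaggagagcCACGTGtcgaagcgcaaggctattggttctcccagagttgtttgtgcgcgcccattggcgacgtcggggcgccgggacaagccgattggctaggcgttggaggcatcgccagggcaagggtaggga

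ACGTG was in 13 of the 35 promoters (37.1%), beside 16.6% of all 32851 promoters. The latter include alternative starts of the same gene, so the 2 sets were not chosen alike. It was in 3 of the 10 promoters of genes that fell (Slc2a1, Hk2 and Hk3), in 4 of the 11 of genes that rose (Pfkm, Pygl, Ugp2 and Pdk2) and in 6 of the 14 of genes not called. CACGTG, which contains ACGTG, was in 5 of the 35 (14.3%, beside 6.02%), namely Pfkm, Ldha, Pcx, G6pc3 and Pdk2. CACGGG was in 2 (Pfkfb3 and Pygl, 5.71%, beside 8.46%) and TGTTTTG in 2 (Pck2 and G6pc, 5.71%, beside 5.56%). Pklr is not among those with CACGGG, because the promoter counted was the one nearest its annotated gene start and not the one printed above. A match is a run of letters in a window and not a bound site.

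Around the 37 genes, 59 further genes of the same pathways were listed, of which 52 passed the filter (Eno2, Pgam2, Fbp2, Slc2a10, Slc2a12, Pygm and Phkg1 did not). Of the 52, 22 rose and 8 fell (57.7% called, beside 43.9% of all genes), and their median log2 fold change was 0.38. The 8 with the smallest p values, picked from these same livers, included genes that rose and genes that fell. By that choice they do not stand for the balance of the 52. Slc16a3, the lactate exporter MCT4 of glycolytic cells, went from 40.9, 31.8 and 38.7 CPM with vehicle to 5.97, 2.60 and 3.01 CPM with Rk2 (log2 fold change -3.27, SE 0.31, adjusted p = 0.000569). Ppp1r3b, the subunit that brings protein phosphatase 1 to glycogen in liver, went from 62.6, 66.2 and 87.7 CPM to 241, 249 and 185 CPM (log2 fold change 1.64, SE 0.17, adjusted p = 0.00075). Of its relatives, Ppp1r3d fell (log2 fold change -1.54, adjusted p = 0.00235), as did Gys1, the glycogen synthase of muscle and other tissues (log2 fold change -1.75, adjusted p = 0.00269). The relatives Ppp1r3c (log2 fold change 1.31, adjusted p = 0.0275) and Ppp1r3g (log2 fold change 2.005, adjusted p = 0.0239), named after their values were seen, rose, and Ppp1r3e did not pass (-0.20, adjusted p = 0.504).

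Pfkfb2, the heart form of the bifunctional enzyme, fell from 26.3, 17.2 and 18.0 CPM to 5.21, 5.21 and 6.69 CPM (log2 fold change -1.85, adjusted p = 0.00091). Pdp1, a phosphatase that reverses the action of the Pdk kinases, fell from 5.21, 5.42 and 7.41 CPM to 1.72, 1.36 and 1.23 CPM (log2 fold change -2.06, adjusted p = 0.000928). Khk, the fructokinase of liver, rose (log2 fold change 0.82, adjusted p = 0.0039). Bpgm, which makes the red cell effector 2,3-bisphosphoglycerate, rose from 12.2, 12.4 and 12.2 CPM to 26.1, 23.8 and 26.0 CPM (log2 fold change 1.04, adjusted p = 0.000496), beside the red cell markers given with Pklr. Pygb, the brain phosphorylase, rose (log2 fold change 0.81, adjusted p = 0.0107) but did not pass in the FPKM table (limma adjusted p 0.109 to 0.151).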

How the data were processed

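Total RNA (250 ng per liver) was made into libraries with an MGIEasy kit and sequenced on a BGISEQ-500 platform. Per the labels and the study's methods, the authors aligned reads to mm10 with HISAT2 2.2.1, after FastQC 0.11.5, and quantified genes with StringTie 1.3.3. The annotation and strand setting are not given in the sources used here. The deposited counts per gene (15454 genes) were used as raw counts, and the deposited FPKM values (21948 genes) were used for levels and isoform shares. Counts depend on transcript length and FPKM does not, but StringTie FPKM also depends on the isoforms assembled.

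Here, counts were tested with edgeR 4.0.16 (filterByExpr, TMM, glmQLFit and glmQLFTest; R 4.3.3), adjusted over 12411 genes, without covariates. The groups were read from the treatment labels. Isoform ratios (FPKM + 0.1) were tested by exact two-sided permutation. DESeq2 1.42.0, limma 3.58.1 on log2(FPKM + 1) or log2(FPKM + 0.1), other scalings and filters, removal of the transcript-length trend, a replicate block and each liver left out were the alternatives. The test script was checked on simulated counts. Libraries of a group differed far beyond counting noise (chi-square per degree of freedom 31.4 to 74.8), so none was counted as a repeat. Positions and exon overlaps come from GENCODE M21 and promoters from RefSeq, both on GRCm38.

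The genes, classes, pathway and marker lists were chosen with earlier results of these data known. All 37 genes are named, and of the other pathway genes the 8 with the smallest p and the isoform partners of the 37 genes (Gys1, Pygb, Pygm and Eno1b). Some planned partners and ratios are not reported here. The marker lists not described in the report gave 4 of 8 endothelial genes higher and 3 lower, 2 of 8 stellate genes lower, 1 of 6 cholangiocyte genes higher and 2 lower, and the 1 muscle gene tested of 6 listed lower (3.49 to 4.10 CPM in I/R, 1.23 to 2.48 in I/R+Rk2).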

Additional observations from a re-analysis of the deposited data

How the results depend on the processing

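Of the 22 genes called, 17 were called in the same direction under each of the 17 alternatives that gave a value for them, and 5 (Pfkl, Fbp1, Slc37a4, Gys2 and Ugp2) were not called under some. None of the 22 reversed. Of the 15 genes not called, 8 passed under at least 1 alternative. The numbers higher and lower were 12 and 10 in the report, 13 and 10 with DESeq2, 8 and 12 with library size alone, and 10 and 12 by limma on log2(FPKM + 1). With library size alone, 1321 of all genes were higher and 3480 lower. Genes higher over the whole table numbered 1175, 1151 and 1129 by limma (log2(FPKM + 1), log2(FPKM + 0.1), and no filter) and 1640 to 2400 with a liver left out. Beyond 2-fold, 246 of all genes were higher with library size alone and 93, 155 and 82 by limma, with 807 and 838 lower by limma on log2(FPKM + 1) with and without the filter. The causes were not tested.

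By role, upper-quartile scaling gave 5 glycolytic genes higher (Pgam1 and Eno1 added). Gluconeogenic genes higher were 1 with library size alone, limma and the transcript-length trend removed, and 1 to 4 with a liver left out. Gluconeogenic genes lower were 1 (Pcx) with library size alone and limma. Glycogen genes higher were 1 with library size alone and 1 to 3 with a liver left out. Glucose transporters lower were 1 to 2 and liver isoforms lower 0 to 1 with a liver left out, and liver isoforms lower were 0 with the length trend removed, when Pfkl was not called. The 37 genes gave 3 to 7 higher beyond 2-fold with a liver left out, 7 of them without I/R+Rk2 replicate 1, when 10 were lower beyond 2-fold (7 in the report, 9 with library size alone and by each limma fit). The 52 other pathway genes gave 14 higher with library size alone, 9, 9 and 8 by limma, and 14 to 21 with a liver left out, and 4 lower by limma with the filter. The 8 isoform ratios kept their direction under every pseudocount, with counts per length and with each liver left out, where no test could pass.

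Reversals occurred only among genes not called. Gpi1 was -0.0339 with library size alone. Pgk1 was 0.0109 with RLE scaling, 0.0135 with DESeq2, 0.0516 with upper-quartile scaling and -0.0522 to 0.0553 with a liver left out. Pck1 was -0.18 by each limma fit and -0.28 to 0.69 with a liver left out. Pck2 was -0.0321 with library size alone, -0.0038 by limma on log2(FPKM + 1) and -0.0881 to 0.3014 with a liver left out.

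Replicate numbers are shared by the groups, but livers with the same number did not deviate together (correlations -0.0313, 0.0477 and -0.0243, with 1 of 3 numbers correlating best with itself). No pairing by number was seen, although so few livers cannot exclude one. With the replicate number as a block, 11 of the 37 genes were higher and 10 lower, 2119 and 2595 of all genes, and Pgk1 was 0.0015. Slc37a4 was the gene no longer called.

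Depth limits the lowest genes, such as Hk3 with Rk2 and Pygm.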
